A study of Mus musculus with 11 samples.

Results

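The hair keratins and keratin-associated proteins are the structural genes of the hair follicle, and they were examined here as 1 group of genes in mouse skin tumours and normal skin. The group took every gene whose array annotation gives a single symbol beginning with Krtap, together with 23 genes chosen by name: inner root sheath keratins, hair shaft keratins, the companion layer keratin Krt75, and Tchh, Padi3, Dsg4 and Gprc5d. It held 66 of the 20352 genes measured, of which 44 were keratin-associated proteins and 22 were among the 23 chosen by name, and the remaining 1 was not analysed here. The rule uses names alone, and it was set with earlier results of these data known.

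The study compared 5 keratoacanthomas, crater-shaped keratinizing skin tumours, with 6 normal skins on whole-transcript arrays. All 5 keratoacanthomas came from mice carrying both the K14-Cre and the Zmiz1 transgenes; the K14 promoter drives Cre in basal keratinocytes and in the outer cells of the follicle. Normal skins 1 and 2 came from mice of that same K14-Cre;Zmiz1 double transgenic genotype, normal skins 3 and 4 from mice with K14-Cre alone, and normal skins 5 and 6 from mice with Zmiz1 alone. The arrays therefore include no skin from a mouse without a transgene, and the labels give neither age, sex, body site nor whether each piece is a different mouse, so p-values measure the spread between pieces, which may be partly technical. Each value is a gene's log2 level, the median over its probesets, and differences are on the log2 scale with the keratoacanthoma value minus the normal skin value. Zmiz1 itself was at 8.15 ± 0.11 in keratoacanthomas and 7.50 ± 0.30 in normal skins (SD, n = 5 and n = 6), and the groups did not overlap. Of all genes, 9.66% likewise lay wholly higher in keratoacanthoma. The mean of Zmiz1 was 7.39 in double and 7.55 in single transgenic normal skins. The keratinocyte keratins Krt5, Krt14, Krt1 and Krt10 lay between 9.63 and 12.04 in every array.

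Hair is built in the lower part of a growing follicle, where matrix cells differentiate into concentric layers. The inner root sheath, which moulds the shaft, uses its own keratins and the matrix protein trichohyalin, while the cortex and cuticle of the shaft fill with hard keratins embedded in cysteine-rich or glycine- and tyrosine-rich keratin-associated proteins. These genes are on during the growth phase, anagen, and are largely off in resting follicles, so that in whole skin they mark follicles that are producing hair.

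The sequences in front of 5 members, from chromosomes 3, 11 and 16, are shown because they carry, or lack, the short motifs found in much of the group. Promoters, from 250 bases before the start to 50 bases after it, were found in RefSeq (build GRCm38.p6) for 56 of the 66 members. The motif TATAAA, the core of the TATA box, occurred on either strand in 45 of the 56, or 80.36%, against 4473 of 32851 promoters in the genome table, or 13.62%. Counting only the forward strand and matches that begin between 40 and 20 bases before the start, the usual place of a TATA box, it occurred in 31 members (55.36%) and in 1.99% of all promoters. CTTTGAA, a core recognised by LEF and TCF proteins, the DNA-binding partners of Wnt signalling, occurred on either strand in 15 members, or 26.79%, and in 5.14% of all promoters. The 2 motifs do not overlap in the matches shown, and a match is a run of letters, not a measured site. Capitals mark the matches, positions count back from the start, and all sequences run 5′ to 3′ on the gene's own strand.

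Tchh, chr3:93442080-93442379, plus strand, with no TATAAA and with CTTTGAA matches at positions -159 and -144, the first of them on the opposite strand. Krt25, chr11:99322902-99323201, minus strand, with TATAAA at -30. Krtap8-1, chr16:89487903-89488202, minus strand, with TATAAA at -29. Krtap3-1, chr11:99566581-99566880, minus strand, with TATAAA at -37. Krt32, chr11:100088220-100088519, minus strand, with TATAAA at -88 and -29 and CTTTGAA at -247.
Tchh: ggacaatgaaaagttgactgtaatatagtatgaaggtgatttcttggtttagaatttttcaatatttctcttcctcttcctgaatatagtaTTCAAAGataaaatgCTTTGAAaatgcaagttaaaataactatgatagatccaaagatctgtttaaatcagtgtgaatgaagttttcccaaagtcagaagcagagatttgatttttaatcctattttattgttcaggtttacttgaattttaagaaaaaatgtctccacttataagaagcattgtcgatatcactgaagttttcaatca
Krt25: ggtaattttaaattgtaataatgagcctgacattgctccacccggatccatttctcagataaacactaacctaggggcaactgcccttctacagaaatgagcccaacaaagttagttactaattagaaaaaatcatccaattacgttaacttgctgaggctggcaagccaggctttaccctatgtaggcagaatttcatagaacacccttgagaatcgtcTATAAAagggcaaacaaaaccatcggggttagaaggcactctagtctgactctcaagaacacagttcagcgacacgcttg
Krtap8-1: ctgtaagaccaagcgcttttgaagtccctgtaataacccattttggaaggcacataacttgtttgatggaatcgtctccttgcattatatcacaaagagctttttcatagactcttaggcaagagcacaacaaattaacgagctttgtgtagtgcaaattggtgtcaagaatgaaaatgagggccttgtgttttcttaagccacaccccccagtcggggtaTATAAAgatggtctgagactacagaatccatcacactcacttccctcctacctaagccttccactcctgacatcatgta
Krtap3-1: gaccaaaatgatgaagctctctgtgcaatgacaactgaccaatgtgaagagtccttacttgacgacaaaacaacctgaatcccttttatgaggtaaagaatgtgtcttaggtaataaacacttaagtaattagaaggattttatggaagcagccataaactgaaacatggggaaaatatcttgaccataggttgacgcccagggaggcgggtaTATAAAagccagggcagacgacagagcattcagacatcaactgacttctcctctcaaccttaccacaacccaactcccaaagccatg
Krt32: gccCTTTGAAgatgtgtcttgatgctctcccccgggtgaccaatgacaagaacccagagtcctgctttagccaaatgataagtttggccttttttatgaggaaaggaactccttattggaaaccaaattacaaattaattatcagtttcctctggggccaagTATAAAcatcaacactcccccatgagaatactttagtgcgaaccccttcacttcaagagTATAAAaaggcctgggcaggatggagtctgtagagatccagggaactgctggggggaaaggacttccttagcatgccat

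By class, CTTTGAA was in all 4 shaft type I keratin promoters matched and in 7 of 13 high-sulfur keratin-associated protein promoters, and in 0 of 13 ultrahigh-sulfur ones. TATAAA was in 12 of those 13 ultrahigh-sulfur promoters, in 7 of 8 inner root sheath promoters and in 7 of 10 glycine-tyrosine ones.

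In nearly every one of these genes the same 3 arrays stood above the other 8, and those 3 did not follow the tumour label. Keratoacanthoma 4, normal skin 1 and normal skin 3 were the 3 highest arrays in 64 of the 66 members, or 97.0%, whereas this order held for 1.48% of all 20352 genes. Over single probesets, it held for 217 of the 264 that measure the members. The exceptions were Krtap13, highest in keratoacanthoma 5 at 5.36 against 3.78 to 4.35 in the other keratoacanthomas and 3.92 to 4.18 in normal skins, and Krtap10-4, in which normal skin 2 stood with keratoacanthoma 4 at 7.38. That holds for the median over the 3 probesets of Krtap10-4. Its probeset 10370331 was at 8.19, 9.46 and 9.65 in keratoacanthoma 4, normal skin 1 and normal skin 3, and at 4.75 to 5.43 in the other 8. Krtap13 lay below its array's 25th percentile, which ran from 4.88 to 4.95, in 10 of the 11 arrays. Krt26 lay below it in 8 arrays, Krt28 in 7 and Krt86 in 6. Values of such genes in their low arrays are near the background of the array. The median over the 66 members was 5.77, 6.08, 6.19, 8.36 and 6.08 in keratoacanthomas 1 to 5, and 9.55, 5.73, 9.46, 5.91, 6.02 and 5.73 in normal skins 1 to 6. Normal skin 1 was the highest array in 42 members and normal skin 3 in 22, and each of them lay above keratoacanthoma 4 in 64.

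Genotype did not separate the high from the low normal skins. Normal skin 2 shares the double transgenic genotype of normal skin 1, and normal skin 4 shares K14-Cre alone with normal skin 3, yet both lay at the low level. In bulk tissue, fewer hair-forming cells and less hair-gene RNA per cell cannot be told apart, and the sources used here give no hair cycle stage or processing batch for the pieces. The range over the 11 arrays reached 2 log2 units in 55 members, or 83.3%, as it did in 6.93% of all genes.

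**Figure D1:**
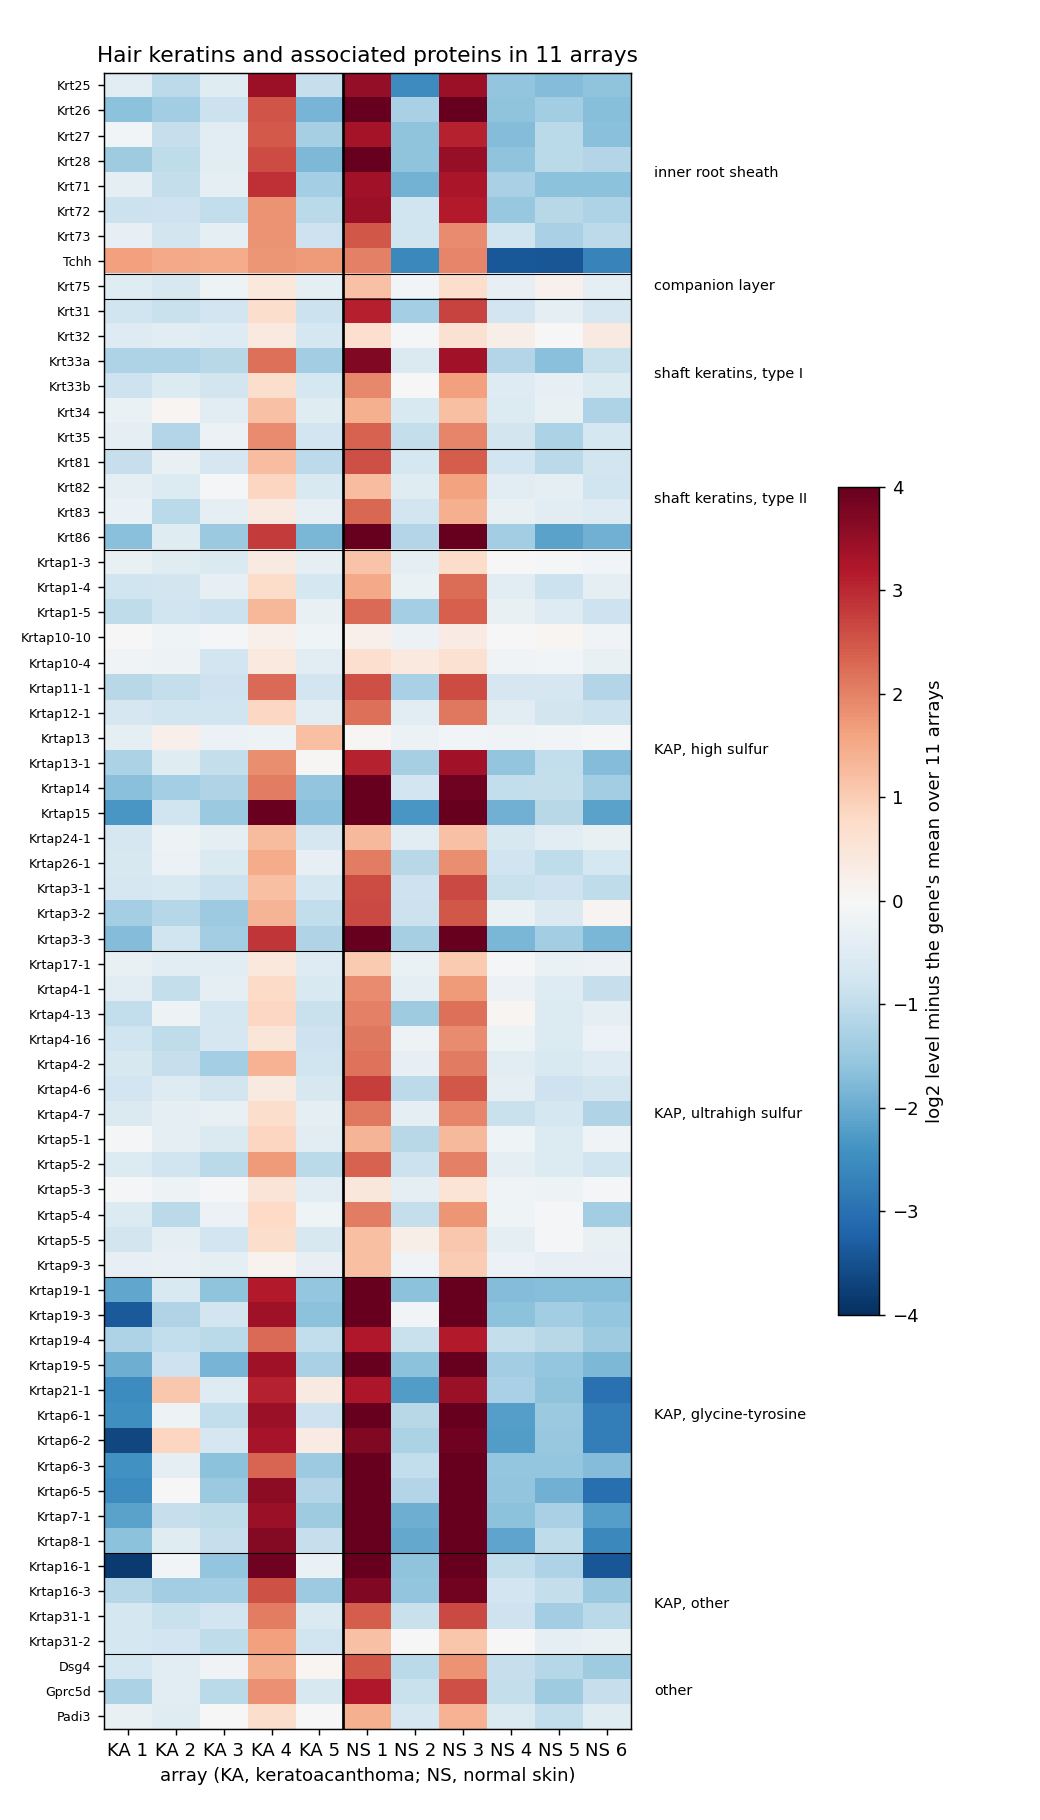
Log2 level of each of the 66 genes (rows, grouped by role) in each of the 11 arrays (columns, keratoacanthomas left of the black line), minus the gene's mean over the 11 arrays; red is above that mean, blue below it, and colours saturate at 4 units. Keratoacanthoma 4, normal skin 1 and normal skin 3 are the 3 highest arrays in 64 of 66 genes, and Tchh is the row that is red in all 5 keratoacanthomas.

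Between keratoacanthoma and normal skin as labelled, 1 member was higher, Tchh, and 1 was lower, Krt32, by limma across all genes at an adjusted p under 0.05. Of all genes, 14.5% were called higher and 10.8% lower in keratoacanthoma. The median difference over the 66 members was -0.60, with 59 negative and 7 positive, while the median of all genes was -0.04. An unadjusted p under 0.05 was reached by 2 members, as against 36.7% of all genes. In 0 members did the 2 groups fail to overlap, where 9.66% of all genes lay wholly higher and 6.31% wholly lower in keratoacanthoma. The standard error of a member's difference had a median of 0.72, and that of all genes 0.14.

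Without those 3 arrays 4 keratoacanthomas stood against 4 normal skins. The arrays were left out because of their values in these same genes, so that every p of this fit describes the 8 arrays left and is no independent test. That holds also for each adjusted p given below for a single gene without the 3 arrays. Then 7 members were higher (all genes 13.0%) and 5 lower (all genes 10%), while 20 reached an unadjusted p under 0.05 (all genes 34.8%). The median difference was 0.10, with 40 positive and 26 negative, so that its sign turned. The higher members were Tchh, Krt25, Krt27, Krt71, Dsg4, Padi3 and Krtap26-1, of which Tchh and the 3 keratins belong to the inner root sheath. The lower ones were Krt32, Krtap3-2, Krtap31-2, Krtap4-16 and Krtap5-5, all products of the shaft. All 4 keratoacanthomas lay above all 4 normal skins in 5 members (14.4% of all genes), namely Tchh, Krt25, Dsg4, Padi3 and Krtap26-1. They lay below them in 7 (12.0% of all genes), the 5 lower members with Krtap4-2 and Krtap17-1. Krt25, Krt71, Dsg4, Padi3 and Krtap26-1 each had probesets that were unlike in these 8 arrays, as given below.

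**Figure D2:**
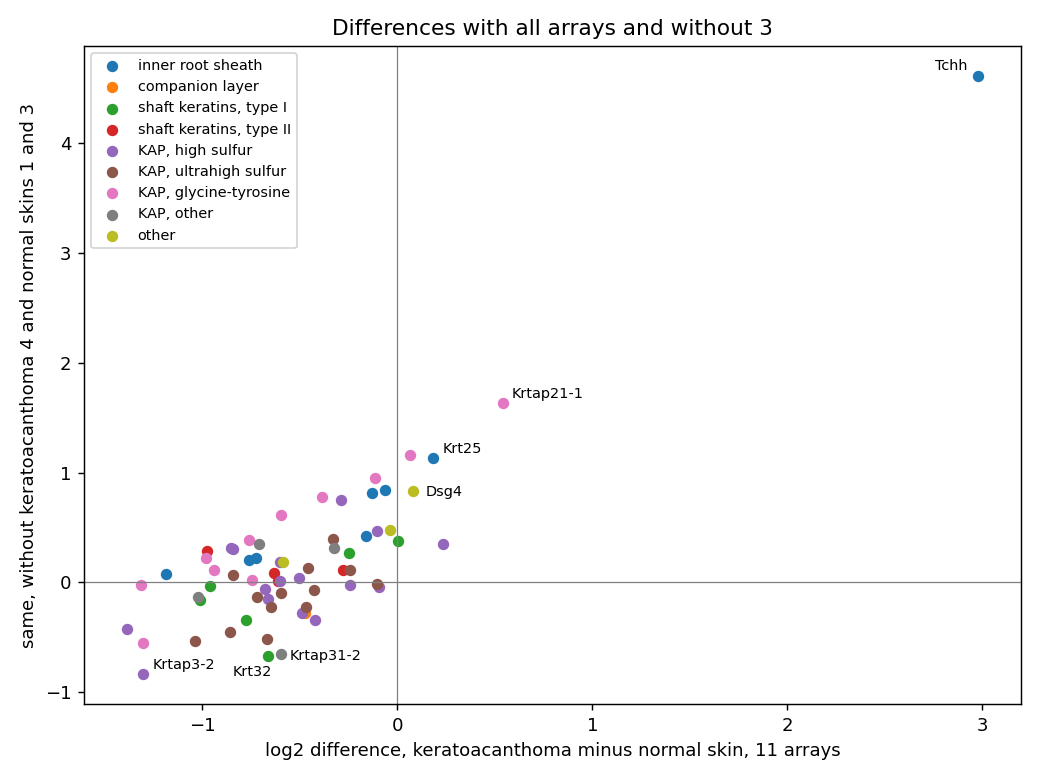
Log2 difference of each of the 66 genes, keratoacanthoma minus normal skin, fitted on all 11 arrays (horizontal axis) and without keratoacanthoma 4 and normal skins 1 and 3 (vertical axis), with points coloured by role. Tchh lies apart at 2.98 and 4.61, 59 genes lie left of 0 on the horizontal axis and 26 lie below 0 on the vertical one.

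Trichohyalin, encoded by Tchh, is the granule protein that hardens the inner root sheath and the medulla after its arginines are deiminated and its chains cross-linked. Its level was 11.48, 11.37, 11.34, 11.61 and 11.57 in keratoacanthomas 1 to 5. In normal skins 1 to 6 it was 11.85, 7.25, 11.81, 6.45, 6.44 and 7.16. All 5 keratoacanthomas thus stood at one high level, just under the 2 high normal skins, and the other 4 normal skins were far below. Tchh was higher by 2.98 (SE 0.98, limma adjusted p = 0.040). Without the 3 arrays the difference was 4.61 (SE 0.20), but these take away the only normal skins at the tumour level, so that no p is given for it. The call was lost when any 1 of 9 arrays was left out and kept without normal skin 1 or normal skin 3, and over the fits that left out 1 array the difference ran from 2.57 to 3.65. Over the 21 alternative fits other than that without the 3 arrays the adjusted p ran from 0.0063 to 0.199. A single probeset measures Tchh.

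**Figure D3:**
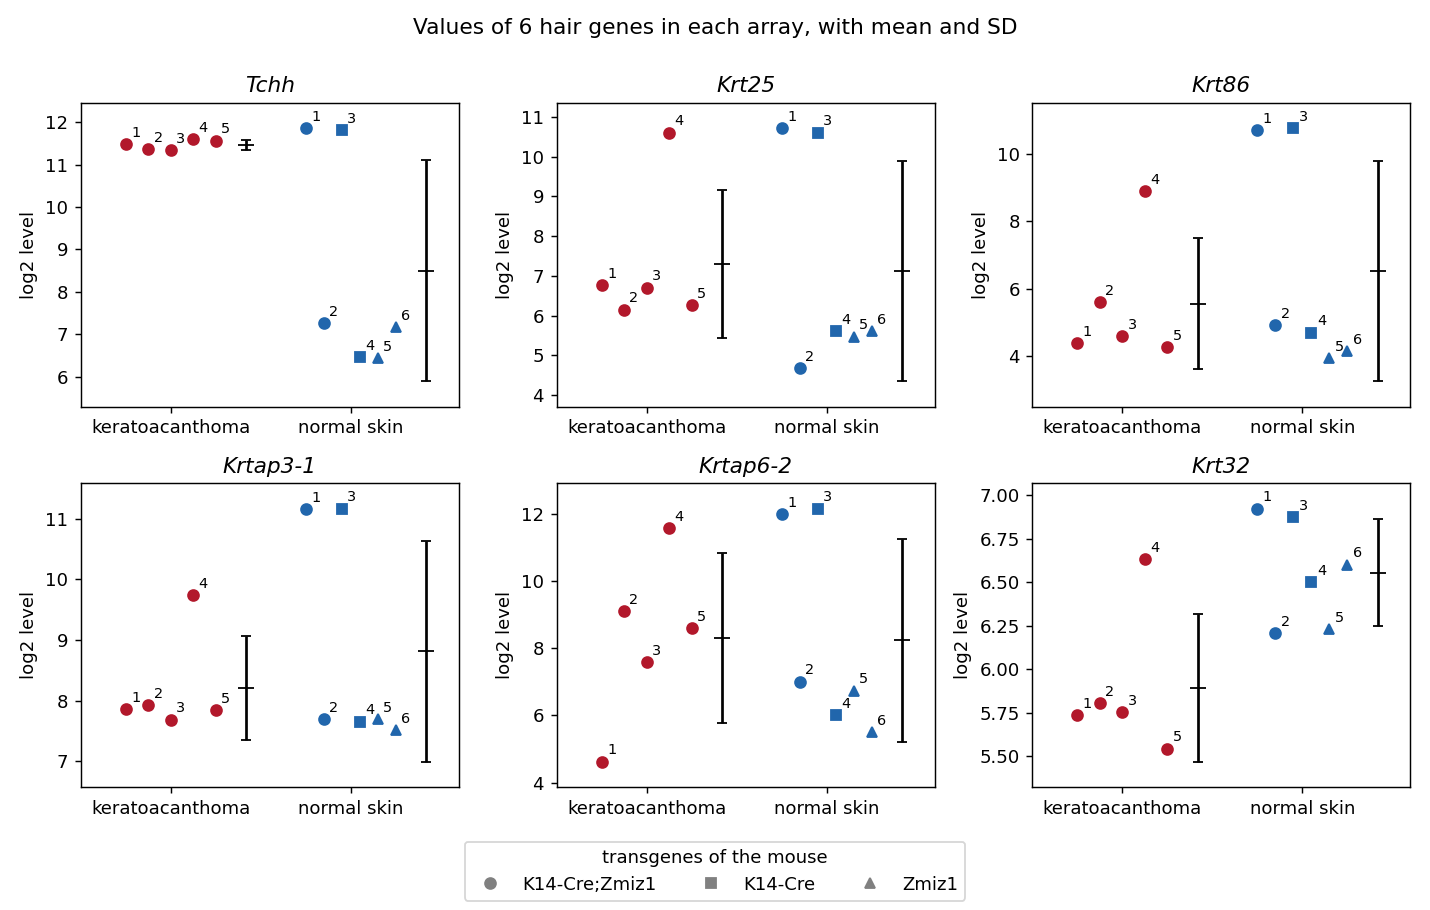
Log2 level (vertical axes, each on its own scale) of 6 genes in every array, keratoacanthomas in red on the left and normal skins in blue on the right, with replicate numbers beside the points, mark shapes for the transgenes, and black bars for the mean and SD. Tchh is between 11.34 and 11.61 in all 5 keratoacanthomas. Keratoacanthoma 4 is the highest keratoacanthoma in all 6 panels, by a wider margin in the other 5 than in that of Tchh.

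By their medians over several probesets, the keratins of the inner root sheath had a different pattern over the arrays from Tchh, which has 1 probeset. Krt25, a type I keratin of all its layers, was at 6.77, 6.15, 6.70, 10.61 and 6.26 in keratoacanthomas 1 to 5, and at 10.71, 4.67, 10.61, 5.62, 5.47 and 5.60 in normal skins 1 to 6. The 3 high arrays stood together, and among the other 8 every keratoacanthoma was above every normal skin. The 7 probesets of Krt25 were unlike in those 8 arrays. Probeset 10390799 ran from 8.10 to 10.07 in keratoacanthomas and from 4.67 to 7.38 in normal skins. For 10390805 these ranges were 6.09 to 6.94 and 5.62 to 6.54. The difference was 0.19 (SE 1.21, adjusted p = 0.931) over all arrays and 1.13 (SE 0.23, adjusted p = 0.0055) without the 3. Krt71, a type II partner whose mutation gives wavy or curly coats, differed by -0.06 (SE 1.11) over all arrays and by 0.84 (SE 0.22, adjusted p = 0.021) without the 3. Krt27 differed by -0.13 (SE 1.04) and by 0.82 (SE 0.26, adjusted p = 0.043) in the same fits. The 10 probesets of Krt71 also went different ways in the 8 arrays. Probeset 10432806 ran from 6.20 to 8.65 in keratoacanthomas and from 3.61 to 5.84 in normal skins. In 10432802 all keratoacanthomas, at 6.11 to 6.54, lay below all normal skins, at 6.75 to 7.62.

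Krt26 and Krt28, neighbours of Krt25 in the type I cluster, showed the 3 high arrays but overlapped in the other 8. Krt26 was at 4.10, 4.34, 4.88, 8.24 and 3.88 in keratoacanthomas, and at 10.59, 4.43, 10.13, 4.11, 4.34 and 4.02 in normal skins. Krt28 differed by 0.20 (SE 0.26) without the 3 arrays, Krt72 by 0.22 (SE 0.16) and Krt73 by 0.42 (SE 0.17), none with an adjusted p under 0.05. In that fit 4 of the 8 inner root sheath genes were called higher (all genes 13.0%), and the 8 differences, all positive, had a median of 0.62 (all genes -0.04); no test was made of the class. Krt75, the keratin of the companion layer between the inner and outer sheaths, ranged over 1.83 and differed by -0.47 (SE 0.28, adjusted p = 0.241).

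Padi3, the enzyme that deiminates trichohyalin, was at 6.12, 5.95, 6.42, 7.14 and 6.39 in keratoacanthomas and 7.86, 5.76, 7.80, 5.85, 5.44 and 5.93 in normal skins. It differed by -0.03 (SE 0.44) over all arrays and by 0.48 (SE 0.16, adjusted p = 0.049) without the 3. Its 16 probesets were also unlike in the 8 arrays left. Probeset 10517823 ran from 6.72 to 8.11 in keratoacanthomas and from 2.29 to 3.86 in normal skins. For 10517816 these ranges were 7.11 to 7.29 and 6.96 to 7.63. Dsg4, the desmosomal cadherin of the hair shaft precortex, was higher by 0.84 (SE 0.18, adjusted p = 0.0076) in the second fit, against 0.08 (SE 0.70) in the first. Its 19 probesets went different ways in the 8 arrays left. Probeset 10454145 ran from 5.45 to 6.40 in keratoacanthomas and from 2.91 to 5.03 in normal skins. In 10454141 all keratoacanthomas, at 4.65 to 5.64, lay below all normal skins, at 6.44 to 7.42. Gprc5d, an orphan receptor of hard-keratinizing cells, gave -0.59 (SE 0.88) and 0.19 (SE 0.20), neither with an adjusted p under 0.05.

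Among the type I keratins of the shaft, Krt32, a cuticle keratin, was the one that fell. It was at 5.74, 5.80, 5.75, 6.63 and 5.54 in keratoacanthomas 1 to 5, and at 6.92, 6.20, 6.87, 6.50, 6.23 and 6.60 in normal skins 1 to 6. Keratoacanthoma 4 lay among the normal skins, and the other 4 keratoacanthomas lay below all 6. The difference was -0.66 (SE 0.20, limma adjusted p = 0.026), and -0.67 (SE 0.13, adjusted p = 0.0044) without the 3 arrays. Leaving out any 1 of keratoacanthomas 1, 2, 3 and 5 or normal skin 3 ended the call. Over all fits that left out 1 array the difference ran from -0.85, without keratoacanthoma 4, to -0.57. Averaging its 9 probesets in place of the median gave -0.56 (adjusted p = 0.252), and over the 21 alternative fits other than that without the 3 arrays the adjusted p ran from 0.0024 to 0.252.

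The cortex keratins showed the 3 arrays and little else. Krt31 was at 5.61, 5.53, 5.63, 7.11 and 5.54 in keratoacanthomas and at 9.53, 5.04, 9.09, 5.65, 6.02 and 5.72 in normal skins. Krt33a, its close relative, was at 5.05, 5.06, 5.17, 8.48 and 4.90 in keratoacanthomas and at 9.98, 5.70, 9.65, 5.10, 4.62 and 5.38 in normal skins. Without the 3 arrays these 2 genes differed by -0.03 (SE 0.19) and -0.16 (SE 0.21). Krt35, which comes on early as matrix cells enter the shaft, differed by -0.25 (SE 0.73) over all arrays and by 0.27 (SE 0.22) without the 3.

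Of the type II shaft keratins, Krt86 had the widest range, 6.81 log2 units. It was at 4.40, 5.60, 4.60, 8.90 and 4.28 in keratoacanthomas, and at 10.70, 4.93, 10.75, 4.71, 3.95 and 4.16 in normal skins. Keratoacanthoma 4 was well above the other keratoacanthomas and below both high normal skins, and the difference was -0.98 (SE 1.39, adjusted p = 0.652). Over the 4 type II genes keratoacanthoma 4 lay below normal skin 3 by a median of -1.13 and below normal skin 1 by -1.59. Krt81, Krt83 and Krt86 have similar sequences, and part of each signal may come from the others; Krt83 differed by -0.61 (SE 0.51) and Krt81 by -0.63 (SE 0.72). Krt82, a cuticle keratin, differed by -0.28 (SE 0.44).

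The high-sulfur keratin-associated proteins link the keratin filaments of the cortex through disulfide bonds. Krtap3-1 was the member whose profile lay closest to the median profile of the group, with a root mean square distance of 0.19. It was at 7.86, 7.92, 7.69, 9.74 and 7.84 in keratoacanthomas and at 11.15, 7.70, 11.17, 7.65, 7.70 and 7.51 in normal skins. Its 8 low arrays lay together whatever their label, and the difference was -0.60 (SE 0.74, adjusted p = 0.597). Krtap15 ranged furthest in this class, over 7.35 units, from 4.12 in normal skin 2 to 11.48 in normal skin 3, with keratoacanthoma 4 at 10.42. Krtap13-1 differed by -0.29 (SE 0.99) over all arrays and by 0.75 (SE 0.27, adjusted p = 0.073) without the 3, and Krtap14 by -1.39 (SE 1.11) and -0.42 (SE 0.16, adjusted p = 0.092).

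Within the small Krtap3 family the 8 lower arrays differed in direction. Krtap3-2 was at 6.30, 6.49, 6.19 and 6.66 in keratoacanthomas 1, 2, 3 and 5, and at 6.80, 7.38, 7.07 and 7.75 in normal skins 2, 4, 5 and 6, with no overlap and a difference of -0.84 (SE 0.20, adjusted p = 0.013). Krtap3-3 differed by 0.30 (SE 0.21, adjusted p = 0.338) in that fit. Whether these 2 differences differ from each other was not tested. Krtap26-1 differed by -0.10 (SE 0.63, adjusted p = 0.928) over all arrays and, with the sign turned, was higher by 0.47 (SE 0.15, adjusted p = 0.042) without the 3. Its 3 probesets went different ways in the 8 lower arrays. Probeset 10440659 ran from 5.25 to 5.67 in keratoacanthomas and from 4.78 to 5.21 in normal skins. In 10440660 all keratoacanthomas, at 6.80 to 7.04, lay below all normal skins, at 7.23 to 7.63. The 2 groups overlapped in 10440658.

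The ultrahigh-sulfur proteins, which are rich in cysteine, had a range over the 11 arrays with a median of 3.13 units in 13 genes. It was 3.41 in high-sulfur proteins, and 3.19 and 3.51 in type I and type II shaft keratins. In the 8 inner root sheath genes it was 5.33, and in the 11 glycine-tyrosine genes 6.98. These ranges were not tested against each other. Krtap4-6 was at 5.80, 6.04, 5.84, 6.93 and 5.91 in keratoacanthomas and at 9.32, 5.53, 9.05, 6.22, 5.75 and 5.82 in normal skins, so that keratoacanthoma 4 lay nearer to the low arrays than to the 2 high normal skins. Krtap4-2 differed by -0.86 (SE 0.62) over all arrays and by -0.45 (SE 0.16, adjusted p = 0.069) without the 3. Krtap4-16 and Krtap5-5 were lower in the second fit, by -0.53 (SE 0.13, adjusted p = 0.014) and -0.52 (SE 0.16, adjusted p = 0.039). Krtap5-4 and Krtap4-13 differed by 0.13 (SE 0.31) and -0.13 (SE 0.29) there.

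Of the 4 remaining keratin-associated proteins, Krtap31-2 was the 1 member of the 66 that was highest in keratoacanthoma 4, at 7.51, against 7.04 and 6.99 in normal skins 1 and 3. Keratoacanthomas 1, 2, 3 and 5 were at 5.18, 5.12, 4.85 and 5.09, and normal skins 2, 4, 5 and 6 at 5.89, 5.87, 5.52 and 5.58. Those 8 arrays did not overlap, and the difference among them was -0.65 (SE 0.14, adjusted p = 0.0060). Krtap16-3 and Krtap31-1 differed by -0.14 (SE 0.19) and 0.31 (SE 0.15) in that fit. The symbol Krtap16-1 is ambiguous, since it is both a current name and an older name of Krtap19-2. Its probesets, 10440682 to 10440684, are numbered between those of Krtap19-1 and Krtap19-3. This points to Krtap19-2, of a family placed here with the glycine-tyrosine proteins, but probe positions were not available. The gene so annotated was not counted in that class. It ranged over 8.51 units, the widest of the 66.

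The glycine-tyrosine proteins of the cortex are the families Krtap6, Krtap7, Krtap8, Krtap19 and Krtap21. They varied also among the keratoacanthomas and among the normal skins at the low level. Krtap6-2 was at 4.63, 9.11, 7.58, 11.57 and 8.61 in keratoacanthomas 1 to 5 and at 11.98, 7.01, 12.15, 6.02, 6.74 and 5.51 in normal skins 1 to 6. Krtap21-1 was at 4.43, 8.03, 6.45, 10.04 and 7.30 in keratoacanthomas and at 10.18, 4.73, 10.39, 5.64, 5.34 and 3.96 in normal skins. In both, keratoacanthoma 1 was the lowest of the tumours and keratoacanthoma 2 the second highest.

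Each of keratoacanthomas 2, 3 and 5 lay above keratoacanthoma 1 in 11 of the 11 genes, by medians of 2.02, 1.03 and 0.97. Keratoacanthoma 2 was the highest of the 8 lower arrays in 9 of the 11, and keratoacanthoma 1 the lowest in 5. The median SD over keratoacanthomas 1, 2, 3 and 5 was 0.83 in this class, against 0.11 to 0.37 in the other classes. Over normal skins 2, 4, 5 and 6 it was 0.66, against 0.19 to 0.33 in the other classes. The wider spread of this class was thus in both groups. No label orders the arrays within a group, and the spread was not tested. The share of all genes with these orders was not computed. Some of these genes were near the background in their low arrays. Krtap19-1 and Krtap19-5 lay below their array's 25th percentile in 8 arrays, Krtap6-5 in 7 and Krtap6-3 in 5. Krtap7-1, Krtap8-1 and Krtap19-4 lay below it in 0.

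**Figure D4:**
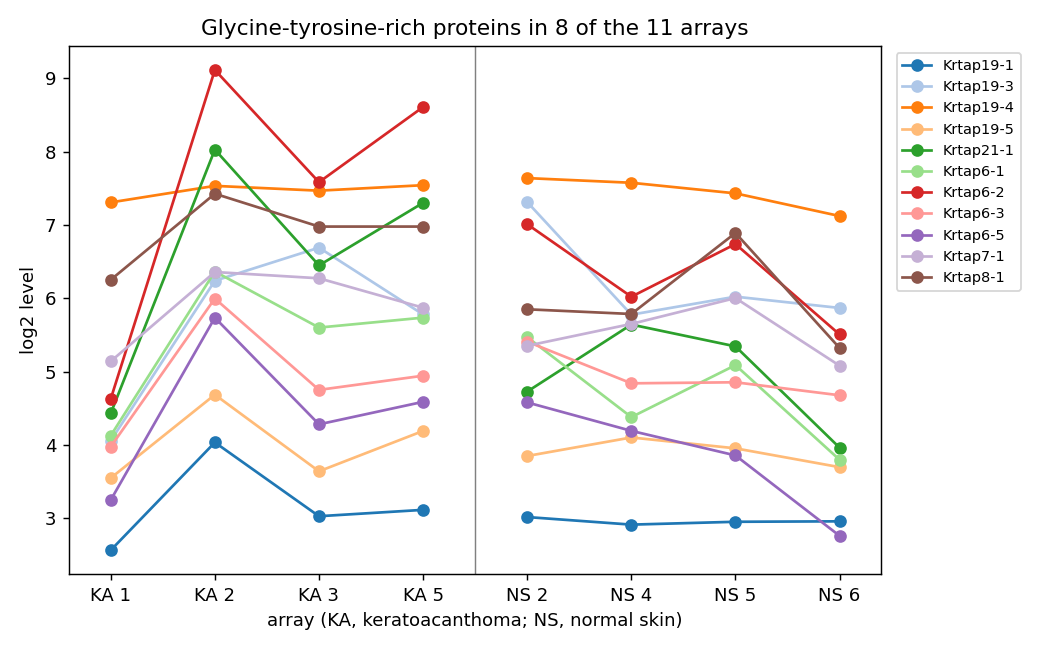
Log2 level (vertical axis) of the 11 glycine-tyrosine keratin-associated proteins in the 8 arrays other than keratoacanthoma 4 and normal skins 1 and 3 (horizontal axis, keratoacanthomas left of the line), 1 colour per gene; lines join the points of 1 gene and give the arrays no order. Keratoacanthoma 2 is the highest of the 8 arrays in 9 genes, and keratoacanthoma 1 lies below keratoacanthomas 2, 3 and 5 in all 11.

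Between keratoacanthomas and normal skins these genes gave wide errors. Krtap6-2 differed by 0.07 (SE 1.41, adjusted p = 0.979) over all arrays and by 1.16 (SE 0.81, adjusted p = 0.351) without the 3. Krtap8-1, with a difference of 0.95 (SE 0.33, adjusted p = 0.063) in the second fit, came nearest to the threshold. Krtap6-5, Krtap6-3 and Krtap19-3 differed by 0.62 (SE 0.50), -0.03 (SE 0.35) and -0.55 (SE 0.53) there. In 0 of the 11 genes did either fit reach an adjusted p under 0.05.

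Keratoacanthoma 4 had a median below both high normal skins in each of these classes. Against normal skin 3 its median difference was -0.49 in inner root sheath genes, -0.59 in type I and -1.13 in type II shaft keratins, -0.93 in glycine-tyrosine, -1.06 in high-sulfur and -0.85 in ultrahigh-sulfur proteins. Against normal skin 1 the same medians were -0.79, -0.85, -1.59, -0.96, -0.83 and -1.04. The level of the inner root sheath genes had a median of 6.50, 5.99, 6.44, 9.26 and 5.88 in keratoacanthomas 1 to 5, and 10.65, 5.63, 10.37, 5.68, 5.46 and 5.55 in normal skins 1 to 6. These are values of single arrays, without a test.

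Within normal skin, the double transgenic pair was set against the 4 single transgenic skins in a fit with 4 groups. By limma, 0 members were higher (all genes 0.00983%) and 0 lower (all genes 0.00491%), with a smallest adjusted p of 0.580, and 0 members reached an unadjusted p under 0.05, as against 10.2% of all genes. The median difference was 0.89, positive in 63 members. Each arm of this comparison holds 1 of the high skins.

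Regulators of hair differentiation were listed to set beside the structural genes. Of 27 measured, 4 were higher in keratoacanthoma (all genes 14.5%) and 1 lower (all genes 10.8%), counts near or below the background, and the counts were 4 and 1 also without the 3 arrays. Ovol1, a repressor that ends proliferation of epithelial progenitors, rose by 0.98 (adjusted p = 0.00055), Prdm1 by 0.80, Runx1 by 0.71 and Wnt5a by 0.64, while Bmp4, a signal for matrix differentiation, fell by 1.08. Hoxc13, Msx2, Lef1 and Cux1, 4 of the 27, had the same 3 highest arrays as the structural genes (all genes 1.48%). Hoxc13, a direct activator of hair keratin genes, was at 6.39, 5.94, 6.46, 7.51 and 6.51 in keratoacanthomas and at 8.61, 6.32, 8.03, 6.49, 6.23 and 6.21 in normal skins, and differed by -0.42 (SE 0.45, adjusted p = 0.534).

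Of 21 other genes of hair structure, 9 had the 3 arrays highest (all genes 1.48%), S100a3, a calcium-binding protein of the cuticle, among them. In this list 4 were higher and 2 lower, where 14.5% and 10.8% of all genes were. Dsc2, a desmosomal cadherin, rose by 2.60 (SE 0.35), the transglutaminases Tgm3 by 2.12 (SE 0.32) and Tgm1 by 1.81 (SE 0.23), which cross-link trichohyalin and envelope proteins, and Gsdma by 1.55 (SE 0.26), whereas Gsdma2 fell by 0.53 and Selenbp1 by 0.48. The last 2 calls were not stable, since Gsdma2 was called in 9 of 21 alternative fits and Selenbp1 in 10 of 22. Dsc2, Tgm1 and Tgm3 are also expressed in the interfollicular epidermis.

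Outside the group, the genes whose profile over the 11 arrays lay nearest to the members' median were Calhm4 at a root mean square distance of 0.24, Rnase12 at 0.37, Ly6g6d at 0.50, 5430421N21Rik at 0.54, Krt74 at 0.61, Adh6b at 0.61, S100a3 at 0.67, Msx2 at 0.67, Ctse at 0.69 and Sptssb at 0.69. Krt74 is a further inner root sheath keratin. Calhm4 was at 5.16, 5.12, 5.32, 7.29 and 4.88 in keratoacanthomas and at 8.25, 4.65, 7.93, 4.77, 4.92 and 4.94 in normal skins. Without the 3 arrays Ctse, an aspartic protease, was higher by 0.80 (SE 0.19, adjusted p = 0.011).

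Other cell types moved with some of these arrays. The melanocyte list had 4 of its 13 genes highest in the 3 arrays (all genes 1.48%). Its mean was 5.69, 5.30, 5.46, 5.86 and 5.37 in keratoacanthomas and 6.62, 5.68, 6.42, 5.67, 5.64 and 5.73 in normal skins. The mitosis list, 19 of 19 genes higher in keratoacanthoma, ran from 7.46 to 7.59 there, and was at 7.04 and 6.63 in normal skins 1 and 3 against 5.57 to 5.84 in the other 4. The skeletal muscle list, 20 of 20 genes lower in keratoacanthoma, ran from 5.61 to 6.89 in keratoacanthomas and from 9.78 to 11.17 in normal skins, lowest of those in normal skins 1 and 3. Adipocyte genes were lower in 7 of 10, from 5.92 to 7.03 in keratoacanthomas and from 7.71 to 8.81 in normal skins, sebaceous gland genes in 4 of 10, dermal papilla genes in 3 of 12 with 1 higher, and bulge and outer root sheath genes in 6 of 12 with 1 higher. Of 10 epidermal keratins 7 were higher and 1 lower. Beside all these counts, 14.5% of all genes were called higher and 10.8% lower in keratoacanthoma. The part that these cell types have in the hair gene values was not tested.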

How the data were processed

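Total RNA from snap-frozen tissue was turned into biotin-labelled cDNA by SPIA amplification and hybridised, per the labels' protocols. The deposited table holds log2 values made by the authors with RMA, the Partek software and genome build mm9, per the submitters' processing notes, which give no role or setting for each; versions are not given in the sources used here. The log2 scale was checked on the values, which ran from 0.994 to 15.2 with array medians from 6.22 to 6.27. RMA as usually run brings arrays to one distribution, so that a level is relative to the rest of its array, and the number of arrays limits the precision.

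Of 241576 probesets, 212097 named 1 gene, and 4475 with several and 25004 with none were not used; 590 that repeated the values of a gene's other probeset were left out. The gene level was the median over probesets, for 20352 genes. Members had 264 probesets, with a median of 3, and 16 had 1; a further 10 probesets name a keratin-associated protein together with other genes. For 7 members the annotated symbol was updated through the RefSeq gene table. Keratin-associated proteins of 1 family have similar sequences, so that 1 probe may detect several. Their classes follow family numbers, since no protein sequences were used.

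Groups were fitted with limma 3.58.1 (R 4.3.3, lmFit and eBayes) over all genes, with Benjamini-Hochberg adjustment and a threshold of 0.05, and 2 groups for keratoacanthoma against normal skin or 4 groups for double against single transgenic normal skin. No filter on low values was applied, so that all 66 members were tested. The fit was tested on simulated data. Figures were drawn with matplotlib 3.10.9, and summaries made in Python 3.11.15 with numpy 2.4.6 and pandas 2.3.3. Alternatives changed the probeset summary, filters on dim probesets or genes, scaling, variance model, array weights, the normal skins used and a replicate block, and left out each array in turn; leaving out keratoacanthoma 4 and normal skins 1 and 3 together was chosen after seeing the data. The members, classes and gene lists were chosen with earlier results of these data known.

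Genes were named by rule: members past the threshold, up to 4 members of each class with the largest range over the arrays, Tchh, Padi3, Dsg4 and Gprc5d, up to 4 called genes of each list that changed most with up to 2 that changed the other way, and the 10 genes most like the members' median profile. Krt27, Krt34, Krt71, Krt72, Krt73, Krtap3-1, Krtap3-2, Krtap4-16, Krtap5-5, Krtap7-1, Krtap8-1, Krtap10-4, Krtap13, Krtap17-1, Krtap19-1, Krtap19-4, Krtap19-5, Krtap21-1, Krtap26-1, Hoxc13, Lef1, Cux1 and Zmiz1 fall outside that rule and were named after their values were seen. Whether replicate numbers pair the arrays was checked by correlating the deviations of same-numbered keratoacanthoma and normal skin arrays from their group means, which gave -0.08, -0.03, -0.14, -0.18 and 0.10; the numbers were not taken as pairs.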

Additional observations from a re-analysis of the deposited data

Results flagged for a closer look

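Dixon's test was run on the members named by rule, within each group, and 16 of 66 such sets of values had 1 array beyond the critical value of 0.710 for 5 arrays or 0.625 for 6. Chance passes it in about 1 in 20 independent sets, a rate that does not apply here, since many of these genes were named for a large range and they vary together over the same arrays. In all 16 the array was keratoacanthoma 4, above the other keratoacanthomas. The gap to the nearest keratoacanthoma, as a share of the group's range, was 0.935 for Krt31, 0.925 for Krt33a, 0.923 for Krtap16-3, 0.891 for Krtap31-1, 0.876 for Krtap31-2, 0.868 for Krtap14, 0.861 for Krt25 and 0.821 for Krt33b. It was 0.796 for Krtap3-3, 0.789 for Krtap4-6, 0.77 for Krt26, 0.761 for Krt32, 0.757 for Krtap15, 0.74 for Krtap4-2, 0.739 for Gprc5d and 0.712 for Krt86. No set of normal skins was past the value for 6 arrays, and normal skins 1 and 3 were both high. What sets keratoacanthoma 4 apart was not tested.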

How the results depend on the processing

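The count of 1 member higher and 1 lower in keratoacanthoma held under quantile normalization, median centring, array weights, the filter on dim genes (63 members) and with single transgenic normal skin alone. Averaging probesets or dropping dim ones gave 1 higher and 0 lower, a trended robust variance 0 higher and 1 lower, and double transgenic normal skin alone 0 and 0. Leaving out each array in turn gave 0 to 1 higher and 0 to 3 lower, with a median difference from -0.98 to -0.11; the 3 lower, Krt32, Krtap31-2 and Krtap5-5, came without keratoacanthoma 4, and the median was nearest to 0 without normal skin 1. Removing keratoacanthoma 4 and normal skins 1 and 3 gave 7 and 5, and turned the median from -0.60 to 0.10. The median was -1.07 against double and -0.30 against single transgenic skin. Double against single transgenic normal skin gave 0 and 0 members throughout.

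With the replicate block, 0 members were called in either direction and the median was -0.80; the numbers share no known pairing, and with 5 pairs only 1 number correlated best with itself. Under that block differences turned sign for Krtap6-2 (-0.48), Krt25 (-0.12), Dsg4 (-0.19), Ctse (-0.00476) and Sptssb (-0.045).

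Other sign changes, of genes past the threshold in neither fit unless named otherwise, were Dsg4 (-0.074) and Padi3 (0.16) with probeset means, Krt25 (-0.078) and Ctse (-0.25) without dim probesets, Krtap6-2 (-0.038) with quantile normalization and Padi3 (0.026) with centring. Double transgenic skin alone gave Krtap6-2 -1.19, Krt25 -0.39, Dsg4 -0.67, Ctse -0.52 and Sptssb -0.36, and single transgenic skin alone Krtap6-5 0.12, Krtap13-1 0.085, Krt35 0.050, Padi3 0.15 and S100a3 0.29. Without the 3 arrays the values were Krtap6-5 0.62, Krtap15 0.31, Krtap3-3 0.30, Krtap13-1 0.75, Krtap16-1 0.35, Krtap31-1 0.31, Krtap4-6 0.068, Krtap5-4 0.13, Krt35 0.27, Krt86 0.29, Krt81 0.082, Krt83 0.0085, Krt82 0.11, Krt26 0.073, Krt28 0.20, Gprc5d 0.19, Padi3 0.48 (past the threshold in this fit), Calhm4 0.30, Ly6g6d 0.57, 5430421N21Rik 0.19, Krt74 0.067 and S100a3 0.58.

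With 1 array left out, ranges that crossed 0 were Calhm4 -0.79 to 0.11, Ctse -0.026 to 0.56, Dsg4 -0.26 to 0.59, Gprc5d -1.13 to 0.00046, Krt25 -0.64 to 0.91, Krt35 -0.75 to 0.20, Krt82 -0.53 to 0.015, Krtap13-1 -0.80 to 0.36, Krtap15 -1.96 to 0.074, Krtap16-1 -1.78 to 0.16, Krtap31-1 -0.88 to 0.17, Krtap6-2 -0.75 to 0.98, Krtap6-5 -1.57 to 0.29, Ly6g6d -0.57 to 0.37, Padi3 -0.24 to 0.25, S100a3 -0.98 to 0.39 and Sptssb -0.34 to 0.38. The causes of these changes were not tested, other than that leaving out arrays removes samples. The 4 arrays left in each group limit the precision of every value without the 3 arrays.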
